A study of Mus musculus with 8 samples.

Results

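The cytosolic ribosomal protein genes were taken as all gene symbols of the authors' probe set table that begin with Rpl or Rps and a number (a paralog letter allowed), together with Rplp0, Rplp1, Rplp2 and Rpsa. The rule used no measured value and gave 78 genes, 31 of the small and 47 of the large ribosomal subunit, which the array covers with 488 of the 234873 probe sets in that table. Levels on each array came from the transcript clusters of the value table. Of the 78 genes, 57 had at least 1 cluster annotated with that gene alone (22 small and 35 large subunit, among 19938 genes so measured), 14 had only clusters annotated with further symbols, and 7 were covered only by the authors' probe sets. The samples were triceps muscles of mice aged 3 months, 4 wild-type controls and 4 Nf1Prx1 mutants, with total RNA of each animal on its own Affymetrix Mouse Gene 1.0 ST array. Nf1 encodes neurofibromin, a protein that switches Ras off, and in Nf1Prx1 mice it is inactivated by a Cre recombinase that acts in limb bud mesenchyme, from which the connective tissue of the limb derives. Muscle fibres are not the main target of this Cre, and whole muscle was profiled, so the mutant tissue still holds cells with intact Nf1. The level of the Nf1 cluster itself (log2) was 8.85 ± 0.12 for control and 8.72 ± 0.07 for Nf1Prx1 muscle (SD, n = 4), and the groups overlapped (exact permutation test, two-sided, p = 0.171), and a cluster level need not show a deletion of part of a gene.

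Ribosomal proteins assemble with ribosomal RNA into the small subunit, which reads the messenger RNA, and the large subunit, which joins amino acids. Their messenger RNAs belong to the most abundant of most cells, and many begin with a C followed by a run of pyrimidines, the terminal oligopyrimidine (TOP) motif, through which mTORC1 and Larp1 set their translation as a group. Most members are made in every tissue. Rpl3l is the exception of interest in muscle, a paralog of Rpl3 that is restricted to heart and skeletal muscle and takes the place of Rpl3 in their ribosomes.

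Annotated transcript starts with the TOP motif are shown first, since this feature is known from many ribosomal protein genes. Of the 78 members, 59 had an entry in the RefSeq promoter table for GRCm38.p6, and 12 of these (20.3%) had a C at the annotated start followed by at least 4 pyrimidines, against 813 of 27025 genes (3.01%). In these windows of 10 bases before and 15 bases from the start, capitals mark the C and the pyrimidine run. The 6 chosen include genes described below and the longest run.
Rps6, chr4:86857353-86857377, minus strand: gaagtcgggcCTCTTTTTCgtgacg
Rpl28, chr7:4792955-4792979, plus strand: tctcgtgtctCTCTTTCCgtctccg
Rps15a, chr7:118116133-118116157, minus strand: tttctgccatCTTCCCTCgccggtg
Rplp2, chr7:141447641-141447665, plus strand: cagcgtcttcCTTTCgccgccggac
Rpl15, chr14:18270972-18270996, minus strand: agaaagccttCTTCCTTTCCTCTgg
Rps10, chr17:27635230-27635254, minus strand: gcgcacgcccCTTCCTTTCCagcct
The 9 genes with such a start and a level had a median log2 difference between Nf1Prx1 and control of 0.03, and the other 37 genes with an entry and a level had one of 0.02. Only a C exactly at the annotated start counted, so TOP genes whose annotated start is off by some bases may fall among the other 37. These medians thus do not compare TOP genes with genes that lack the motif.

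As a group, the ribosomal protein genes differed little in the median between control and Nf1Prx1 triceps. The median log2 difference (Nf1Prx1 minus control) over the 57 genes with a cluster of their own was 0.02, with quartiles of -0.05 and 0.12, against -0.04 over all genes. The mean was higher in Nf1Prx1 muscle for 33 genes and lower for 24, against 8307 and 11631 of all 19938 genes. Small and large subunit genes had medians of 0.02 each, and the differences ran from -0.55 for Rpl3l to 0.50 for Rps28. For 49 of the 57 genes (86.0%) the difference was within 0.25 on the log2 scale, as it was for 74.6% of all genes. In the limma fit over all genes without a block, 0 of 57 passed a Benjamini-Hochberg adjusted p of 0.05, with a smallest adjusted p of 0.254, as 0.0% of all genes did, and 3 of the 57 (5.26%) had an unadjusted p under 0.05, against 13.6% of all genes. With arrays of the same number treated as a pair, called the paired fit, 1 of 57 passed (Rps27l, lower), a share of 1.75% against 8.36% of all genes (3.36% higher and 5.0% lower), and 9 (15.8%) had an unadjusted p under 0.05, against 25.3%. The words rose and fell are used below only for genes that passed in that paired fit. No source states its pairing, which was read from these data, so its p-values may be too small. The groups were fully apart for 0 members toward higher and 1 toward lower levels (Rpl12), against 2.58% and 6.04% of all genes. The 95% interval of a difference reached 0.39 on the log2 scale to either side in the median over members (0.19 to 0.77) in the fit without a block. In bulk tissue, fewer cells of a type and less RNA per cell cannot be told apart.

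**Figure D1:**
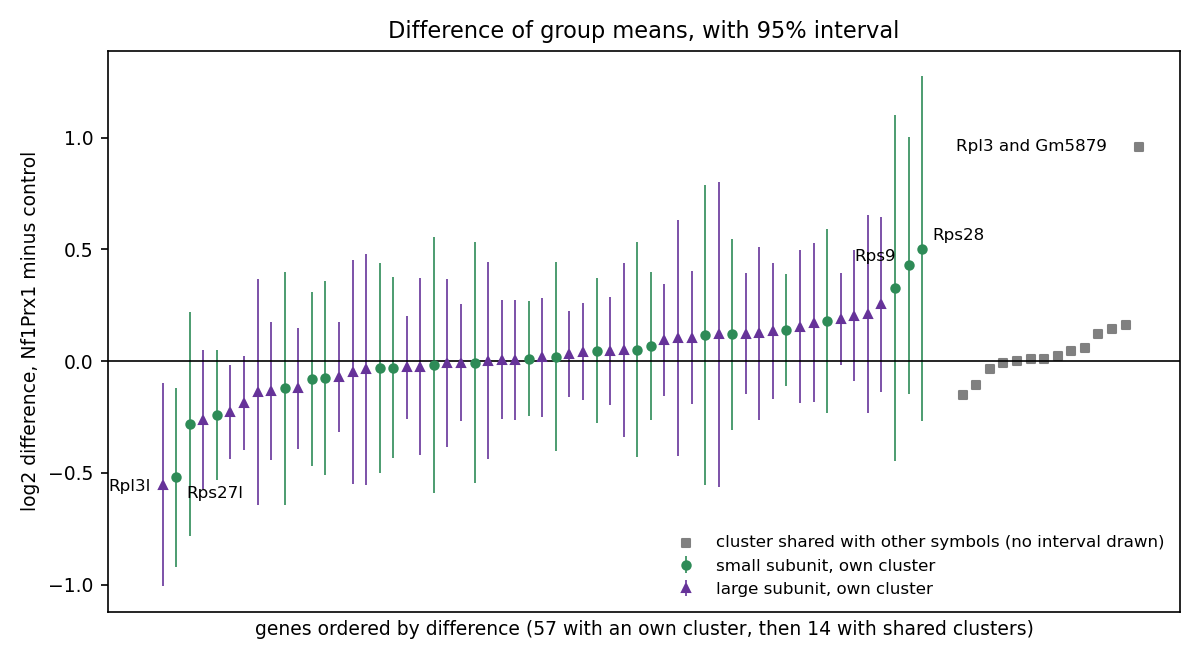
Difference of the group means (log2, Nf1Prx1 minus control) for 57 ribosomal protein genes with a cluster of their own, in order, with the 95% interval of the limma fit without a block as lines, followed by 14 genes measured only on clusters shared with other symbols. Rpl3l and Rps27l lie lowest at -0.55 and -0.52, and the shared cluster of Rpl3 and Gm5879 lies highest at 0.96.

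Rpl3 and its muscle paralog Rpl3l differed in opposite directions. Rpl3, a large subunit protein next to the catalytic centre, was measured on 7 clusters, each of which also lists the pseudogene Gm5879 (2 of them further symbols), so that signal from gene and pseudogene cannot be told apart there. On the cluster with the highest mean (10546054), the control arrays 1 to 4 read 10.28, 9.41, 9.27 and 9.52 and the Nf1Prx1 arrays 11.11, 10.67, 10.19 and 10.34 (log2). Control 1 stood above the other controls and reached into the range of the mutants, while every mutant array lay above its control of the same number. The means were 9.62 ± 0.45 and 10.58 ± 0.41 (SD, n = 4), a difference of 0.96 (SE 0.26) or 1.95-fold, with an exact two-sided permutation p of 0.0571. On cluster 10598721, the next in mean level, the groups overlapped too (difference 0.91, exact permutation p 0.0857). Cluster 10430669, less bright than 10598721, is 1 of the 2 with further symbols and 1 of the 3 whose groups were fully apart. There the controls read 10.15, 9.40, 9.29 and 9.62 and the mutants 11.01, 10.63, 10.20 and 10.22. These groups did not overlap, with a difference of 0.90 and the smallest exact p that 4 against 4 arrays allow, 0.0286.

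All 7 clusters that list Rpl3 rose in the paired fit, by 0.88 to 0.96 on the log2 scale (1.83-fold to 1.95-fold), with adjusted p values of 0.0152 to 0.0234 over 23410 listed clusters, of which 5.73% passed. The groups were fully apart toward higher levels on 3 of the 7, against 2.44% of all listed clusters. The 7 share probes or sequence and are not independent, and 2 of them held identical values. Without the block none passed (adjusted p 0.19 to 0.232), as 0.0% of all listed clusters did. The paired call depended on which arrays were left out: 3 of 7 passed without the arrays numbered 1 (adjusted p 0.0396 to 0.0647), 7 without those numbered 2, and 0 without those numbered 3 (0.0718 to 0.0821) or 4 (0.0938 to 0.103). In the authors' deposited table, whose 7 Rpl3 probe sets name Rpl3 alone, all 7 had higher means in the mutant, by 1.14-fold to 1.76-fold, and 4 had an unadjusted p under 0.05. The 5th of them went from 10.2 to 11.0, 1.76-fold, and was the 1 probe set of 488 in the authors' list of higher probe sets, which holds 0.765% of that deposited table (adjusted p computed here, 0.122). Naming Rpl3 alone does not exclude signal from Gm5879 in these probe sets. Probe sets may also hold the same probes as the clusters, so here and for Rpl3l and Rps27l they are no independent measure.

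The cluster of Rpl3l (10442584) read 11.28, 11.16, 11.21 and 11.05 in control muscle and 10.05, 10.49, 11.07 and 10.89 in Nf1Prx1 muscle. The controls lay close together, the mutants numbered 1 and 2 were low, and the mutant numbered 3 reached just into the control range. The means were 11.18 ± 0.10 and 10.63 ± 0.45 (SD, n = 4), a difference of -0.55 (SE 0.20) or 1.47-fold, lower in 4 of 4 pairs. Rpl3l did not pass, with a limma adjusted p of 0.278 without and 0.106 with the block. Without Nf1Prx1 1 the difference was -0.36, and with array weights it was -0.22. In the authors' deposited table all 10 Rpl3l probe sets had lower means in the mutant, by 1.03-fold to 1.92-fold with a median log2 difference of -0.50, and 4 had an unadjusted p under 0.05 (smallest adjusted p computed here, 0.201).

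Within each array, the log2 level of Rpl3l minus that of the Rpl3 cluster was 1.00, 1.76, 1.95 and 1.53 in control muscle and -1.05, -0.18, 0.88 and 0.55 in Nf1Prx1 muscle. These values did not overlap. Such a value mixes the brightness of different probes, so it shows no ratio of transcripts. A fixed difference in brightness drops out of its change between groups, but signal from Gm5879 in the Rpl3 cluster does not. The value differed by -1.51, or 2.86-fold, with the smallest exact two-sided permutation p possible, 0.0286. With arrays kept in their numbered pairs, the difference was lower in 4 of 4 pairs and the exact p was 0.125, the smallest that 4 pairs allow. The muscle fibre markers (8 of 8 measured, among them Acta1, Ckm and Ttn) had a mean level of 13.36 to 13.54 in control and 12.94 to 13.60 in Nf1Prx1 arrays, lowest in Nf1Prx1 1, where Rpl3l was lowest too, and 0 of 8 passed in the paired fit. Their means were lower in the mutant for 8 of 8. Among the controls the order was the reverse, as control 1 had the lowest level of these markers (13.36) and the highest of Rpl3l (11.28). Of 7 fibroblast markers 4 rose in the paired fit (mean level 9.74 to 10.71 in control, 10.13 to 10.79 in mutant arrays), while Pi16 was lower in every mutant than in any control (-0.49, paired adjusted p 0.0745). Higher levels that passed were also found for 6 of 6 adipocyte markers (8.56 to 11.39 against 10.20 to 12.53) and 3 of 6 macrophage markers (7.82 to 8.80 against 8.33 to 8.89). The satellite cell markers had lower means for 3 of 3 (7.89 to 8.29 against 7.37 to 7.92), of which Myod1 fell, by 0.44 on the log2 scale, and the erythroid marker Alas2, the 1 measured of 4, fell by 1.17 on the log2 scale (8.58 to 9.55 against 7.30 to 9.09). Of the 4 endothelial markers (2 with higher means) and the 5 lymphocyte markers measured, 0 passed. Over all genes 3.36% rose and 5.0% fell in the paired fit. The part of these markers' cells in the Rpl3 and Rpl3l values was not tested.

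**Figure D2:**
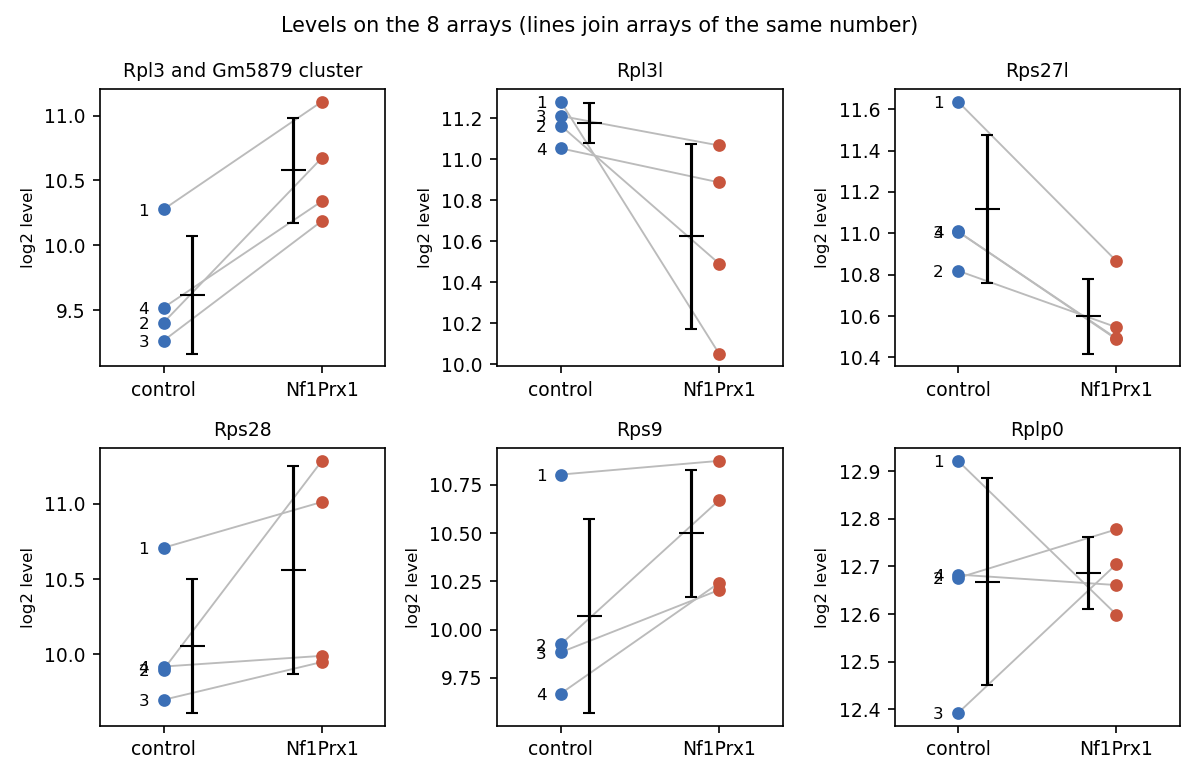
Log2 levels on the 8 arrays for the highest cluster of Rpl3 and Gm5879, for Rpl3l, Rps27l, Rps28 and Rps9, and for Rplp0, with grey lines between arrays of the same number and black bars for the mean ± SD of 4 arrays. The Rpl3 cluster is higher in the mutant of every pair and Rpl3l and Rps27l are lower in the mutant of every pair, whereas Rplp0 changes little in the mean (0.02).

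Rps27l was the 1 member with its own cluster that passed the paired fit, and it fell. It is a small subunit paralog of Rps27, known in human cells as a target of p53. Its cluster (10586604) read 11.64, 10.82, 11.01 and 11.01 in control and 10.87, 10.55, 10.49 and 10.49 in Nf1Prx1 muscle. Mutants 2 to 4 lay below every control, and Nf1Prx1 1 lay just above control 2. The means were 11.12 ± 0.36 and 10.60 ± 0.18 (SD, n = 4), a difference of -0.52 (SE 0.18 without and 0.10 with the block) or 1.43-fold, lower in 4 of 4 pairs. The limma adjusted p was 0.254 without the block and 0.0256 with it. The call was lost in the paired fit without the arrays numbered 1, 3 or 4 (adjusted p 0.0679, 0.0945 and 0.102) and after quantile normalization (0.0846), and kept without those numbered 2 (0.0212). In the authors' deposited table all 4 Rps27l probe sets had lower means in the mutant, by 1.29-fold to 1.46-fold, with a median log2 difference of -0.48.

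The promoter windows of Rpl3l and Rps27l, 150 bases before and 15 bases from the RefSeq start, are shown because these genes had the lowest differences among the members with a cluster of their own. Capitals mark CAGCTG, the E-box that myogenic factors of the MyoD family are known to bind, which was searched on both strands (it is its own reverse complement).
Rpl3l, chr17:24727676-24727840, plus strand: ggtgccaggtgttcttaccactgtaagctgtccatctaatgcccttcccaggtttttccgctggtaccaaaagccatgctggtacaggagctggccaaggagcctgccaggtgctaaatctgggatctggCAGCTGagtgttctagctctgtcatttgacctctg
Rps27l, chr9:66945936-66946100, plus strand: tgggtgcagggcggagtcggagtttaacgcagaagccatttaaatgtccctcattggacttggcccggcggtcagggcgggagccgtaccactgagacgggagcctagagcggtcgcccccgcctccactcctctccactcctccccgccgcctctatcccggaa
The window of Rpl3l held 1 match and that of Rps27l held 0. Over the 59 members with an entry, 2 windows (3.39%) held the motif, against 2888 of 27025 genes (10.7%).

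Among the other paralogs with a measured partner, no such split was seen. Rps27, the partner of Rps27l, had no cluster of its own and was not compared. Rpl10 lay between 12.81 and 13.14 in control and between 12.95 and 13.13 in mutant muscle, a log2 difference of 0.04, and its autosomal paralog Rpl10l, known from testis, differed by -0.01 (interval -0.38 to 0.37). Rpl39l, a testis paralog of Rpl39, had the lowest level of all members, 5.57 to 5.91 in control and 5.68 to 6.36 in mutant muscle, and differed by 0.17. Rpl39 itself, on its highest cluster, which is shared with Gm32211, differed by 0.14. Rps4x, the X-linked small subunit protein, differed by 0.18 (10.92, 10.30, 10.27 and 10.29 in control, 10.95, 10.71, 10.51 and 10.34 in mutant), with higher values in 4 of 4 pairs and overlapping groups. Its paralog Rps4l, outside the symbol rule, differed by 0.03.

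Among small subunit genes, on the cluster with the highest mean of each gene, the largest differences toward higher levels were those of Rps28 and Rps9, and neither passed. Rps28, which lies near the exit of the messenger RNA, read 10.71, 9.90, 9.70 and 9.92 in control and 11.01, 11.29, 9.95 and 9.99 in Nf1Prx1 muscle. The mutants numbered 1 and 2 stood above all controls and the other two below control 1, giving a difference of 0.50 (interval -0.27 to 1.27, paired adjusted p 0.179), which was 0.26 without Nf1Prx1 2. Rps9, a protein near the entry of the messenger RNA, read 10.80, 9.92, 9.88 and 9.67 in control and 10.87, 10.67, 10.21 and 10.24 in mutant muscle. All mutants lay above controls 2 to 4 and each above its numbered control, a difference of 0.43 (interval -0.14 to 1.00, paired adjusted p 0.0725). The other cluster of Rps9 differed by 0.13 and the mean of both by 0.28, and without control 1 the difference of the first was 0.67. Rps6, the phosphorylated substrate of S6 kinase and a usual readout of mTORC1, was at 12.95 to 13.32 in control and 13.08 to 13.38 in mutant muscle, a difference of 0.14 in the same direction in 4 of 4 pairs (interval -0.11 to 0.39). Rps15a was lower in 4 of 4 pairs, at 8.72 to 9.16 against 8.60 to 8.94, a difference of -0.24 (paired adjusted p 0.161), whereas its 2 clusters shared with other symbols, which were brighter, differed by -0.02 and -0.01. Of the genes mutated in Diamond-Blackfan anaemia, 8 of 18 had a cluster of their own, 0 of 8 passed and their median difference was 0.01.

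Among large subunit genes, 32 of 35 (91.4%) differed by no more than 0.25, as did 17 of 22 (77.3%) of the small subunit. Rpl12, which joins the stalk base, was the 1 member whose groups were fully apart on a cluster of its own. That cluster read 7.16, 7.40, 7.17 and 7.38 in control and 6.99, 7.11, 7.00 and 7.10 in Nf1Prx1 muscle, so every mutant lay below the lowest control by a small margin. The difference was -0.23 (SE 0.09), with a limma adjusted p of 0.332 without and 0.122 with the block. At 7.05 to 7.28 its group means lay below the array medians over genes, and its groups overlapped once each array was centred on its median. The 7 clusters that Rpl12 shares with Gm32899 were far brighter, at 12.32 to 12.74, and differed by -0.02 to 0.10. Rpl36 differed by -0.19 and was lower in 4 of 4 pairs, and Rpl29, known for binding heparin, differed by 0.19 and was higher in 4 of 4. The 35 clusters that Rpl29 shares with other symbols differed by -0.02 to 0.15 (median 0.04), and 19 of its 24 probe sets in the authors' deposited table had lower means in the mutant, with a median log2 difference of -0.05. Rpl9 and Rpl41, the latter a very short peptide, differed by 0.20 and 0.25, with paired adjusted p values of 0.245 and 0.102. Rpl21, among the brightest members at 13.04 to 13.37 in control and 13.08 to 13.35 in mutant muscle, differed by 0.05.

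The stalk proteins recruit translation factors to the large subunit. Their scaffold Rplp0, often used as a reference gene in PCR, read 12.92, 12.68, 12.39 and 12.68 in control and 12.60, 12.78, 12.71 and 12.66 in Nf1Prx1 muscle, a difference of 0.02 (interval -0.25 to 0.28). Rplp1 differed by -0.02. Rplp2 read 7.50, 7.74, 7.67 and 7.41 in control and 7.00, 7.45, 7.57 and 7.26 in mutant muscle, lower in 4 of 4 pairs with overlapping groups, a difference of -0.26 (paired adjusted p 0.138). Rpl5, which with Rpl11 binds the smallest RNA of the large subunit and restrains Mdm2, differed by 0.21 (interval -0.23 to 0.65), and Rpl11, on a cluster shared with Brf2, by -0.03.

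For the other 13 genes with shared clusters alone, the differences on the cluster with the highest mean of each ran from -0.15 (Rpl15) to 0.16 (Rpl35a) with a median of 0.01, with 9 higher and 4 lower means, and 0 of 13 passed the paired fit (smallest adjusted p 0.345). Over all 78 clusters of these genes the range was -0.29 (Rpl31) to 0.19. Of the 7 genes covered by probe sets alone, Rps27a had a median log2 difference of -0.16 in the authors' deposited table, and no probe set of the 7 was in either of the authors' lists. Clusters of the same gene did not always agree. Of 38 members with several clusters of their own, 11 had differences of both signs, with a median range of 0.10. Rps21, named after its values were seen, had the widest range, 0.52 over 2 clusters (-0.03 on the one with the highest mean and 0.50 on the other), and the 14 clusters of Rps12 lay between 0.22 and 0.41. Processed pseudogenes of ribosomal protein genes are many, and how far their transcripts bind the same probes was not tested.

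Within groups, the members varied more from array to array than genes in general. The within-group SD had a median of 0.27 on the log2 scale over the 57 genes (0.31 for small and 0.20 for large subunit genes), against 0.19 over all genes. Relative to each gene's control mean, the median shift of the members was 0.34, -0.09, -0.17 and -0.09 in controls 1 to 4 and 0.25, 0.11, -0.07 and -0.11 in mutants 1 to 4. Control 1 was thus the highest array, followed by Nf1Prx1 1. Control 1 was the highest control for 49 of 57 members (20 of 22 small and 29 of 35 large subunit genes), and Nf1Prx1 1 the highest mutant for 36. Control 3 was the lowest control for 38 members and Nf1Prx1 4 the lowest mutant for 29. Over all genes, control 1 was the highest control for 6050 of 19938. In the small subunit the shift of control 1 was 0.50 and that of Nf1Prx1 1 was 0.30, and in the large subunit 0.25 and 0.23.

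The same 2 arrays stood apart in some of the lists of markers of other cells. The brown adipocyte markers (Ucp1 and Cidea) had a mean level of 10.22 in control 1 and 10.07 in Nf1Prx1 1, against 5.91 to 6.24 in the other 6 arrays. The neutrophil markers (5 of 5 measured, such as S100a8 and Ngp) had a mean of 9.54 and 9.85 in these 2 arrays, against 6.53 to 7.25 in the others. The adipocyte markers had a mean of 11.39 in control 1 against 8.56 to 8.84 in the other controls, and 12.53 in Nf1Prx1 1 against 10.20 to 11.16 in the other mutants. The part of these cells in the members' levels was not tested. Between numbered pairs the direction was not the same: 17 of 57 members (29.8%) were higher in the mutant of pair 1, 41 (71.9%) in pair 2, 42 (73.7%) in pair 3 and 21 (36.8%) in pair 4, against 45.2%, 40.6%, 50.0% and 38.2% of all genes. Without control 1, the groups were fully apart for 10 members in place of 1, with Rpl5, Rpl21, Rpl23, Rpl29, Rps4x, Rps6, Rps9, Rps10 and Rps28 higher (9 of 57, beside 6.59% of all genes) and Rpl12 lower (beside 12.4%). The median difference was then 0.13, while 0 of 57 passed in the fit without a block. Control 1 was the highest control for 49 of 57 members, so leaving it out by itself favours differences toward higher levels. Without control 1 and Nf1Prx1 1 together, 9 were fully apart toward higher and 2 toward lower levels, beside 8.03% and 15.7% of all genes, the median difference was 0.08 and 0 of 57 passed with or without the block.

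**Figure D3:**
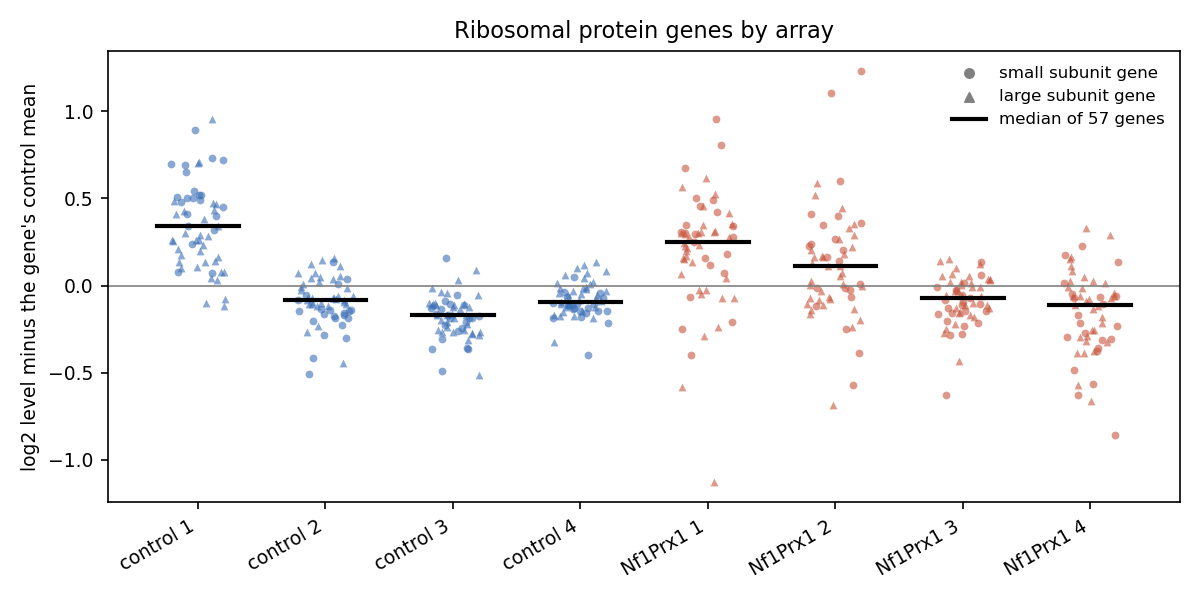
Log2 level of each of 57 ribosomal protein genes minus its mean over the 4 control arrays, by array, with circles for small and triangles for large subunit genes and a black line at the median. Control 1 (0.34) and Nf1Prx1 1 (0.25) have the highest medians, and the control and mutant arrays numbered 3 and 4 lie between -0.17 and -0.07.

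In the authors' deposited table, 168 of the 488 probe sets of members (34.4%) had a higher mean in the mutant, against 46.6% of all probe sets, and the median log2 difference was -0.07 against -0.03. An unadjusted p under 0.05 was deposited for 26 of them (5.33%), against 14.7% over the whole of the authors' deposited table. None of the 488 was in the authors' list of lower probe sets, which holds 0.367% of the table, and none passed an adjusted p of 0.05 computed here, against 0.12%. By the median over its probe sets, 18 members were higher and 60 lower in that deposited table, and Rpl3 was the highest and Rpl3l the lowest. Rps28 followed Rpl3, with 8 of 8 probe sets higher and a median of 0.21. The cluster values gave the other balance (33 higher and 24 lower), but over 57 of the 78 members and by 1 cluster per gene. The arrays behind the deposited table could not be matched to the 8 arrays.

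Other genes of translation were read from the same fits, in which 3.36% of all genes rose and 5.0% fell with the block. Among elongation factors (8 of 9 measured, 1 or 12.5% higher and 0 lower in the paired fit, median difference -0.09), Eef1a1, which brings aminoacyl-tRNA to the ribosome, rose. It read 12.98, 12.23, 12.19 and 12.33 in control and 13.29, 13.22, 12.91 and 13.00 in Nf1Prx1 muscle. Each mutant lay above its numbered control, and Nf1Prx1 3 lay just below control 1. The difference was 0.67 or 1.59-fold (limma adjusted p 0.179 without and 0.0203 with the block). Eef1a2, the paralog of muscle and neurons, read 12.04, 12.51, 12.55 and 12.62 in control and 10.94, 12.09, 12.45 and 12.29 in mutant muscle, a difference of -0.49 that did not pass (paired adjusted p 0.103) and was -0.15 without Nf1Prx1 1. Its within-array value minus Eef1a1 differed by -1.16 between groups (exact permutation p 0.0857). Eef1e1, a multisynthetase complex subunit, and Eef1d differed by -0.49 and -0.20 and did not pass.

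Other messenger RNAs with a TOP motif (13 of 14 measured) had a median difference of -0.14, with 1 higher and 1 lower in the paired fit (15.4%, beside 8.36% of all genes). Pabpc1, the cytoplasmic poly(A) binding protein, read 11.37 to 11.56 in control and 11.71 to 12.03 in mutant muscle, with groups fully apart, and rose by 0.41 or 1.33-fold (paired adjusted p 0.034). Eif3e, an initiation factor subunit named after its values were seen, fell by 0.35 on the log2 scale (paired adjusted p 0.0478). Among initiation factors and mTORC1 components (16 of 19 measured, median -0.16, 18.8% called in the paired fit beside the same 8.36%), Pdcd4, an inhibitor of the helicase Eif4a, rose by 0.74 or 1.67-fold with groups fully apart (paired adjusted p 0.042). Eef2k, the kinase that inhibits elongation factor Eef2, fell by 0.40 on the log2 scale (paired adjusted p 0.0344), and Tsc1, a part of the complex that restrains mTORC1 and named after its values were seen, fell by 0.34 on the log2 scale (0.0475). Rheb, which activates mTORC1, and the cap binding protein Eif4e were lower in every mutant than in any control, at differences of -0.49 and -0.40, and did not pass (paired adjusted p 0.109 and 0.0746).

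Ribosome biogenesis genes (33 of 33 measured) had lower means in the mutant in 30 of 33 cases (11631 of 19938 over all genes). Their median difference was -0.21, beside 0.02 for the ribosomal protein genes and -0.04 for all genes. In the paired fit 0 rose and 3 fell, 9.09% beside 8.36% of all genes. Wdr12, a partner of Pes1 and Bop1 in large subunit maturation, read 8.45, 8.59, 8.63 and 8.54 in control and 8.06, 7.67, 8.16 and 8.07 in mutant muscle. Every mutant lay below every control, and Wdr12 fell by 0.56 on the log2 scale, 1.47-fold (paired adjusted p 0.0262). Ebna1bp2, a nucleolar large subunit factor, fell by 0.42 on the log2 scale (0.0287), also with groups fully apart. Bysl, a small subunit factor named after its values were seen, fell by 0.44 on the log2 scale (0.0481). Rrp9, a protein of the U3 particle, and Gnl3, a nucleolar GTPase, differed by -0.34 each with groups fully apart and did not pass (paired adjusted p 0.0502 and 0.0554). Of the ribosomal protein genes outside the symbol rule, Fau and Rpl7l1 differed by 0.07 and -0.19 and did not pass. Without the arrays numbered 3, Eef1a1, Pabpc1, Pdcd4, Eef2k, Wdr12 and Ebna1bp2 all missed the threshold in the paired fit (adjusted p 0.0808 to 0.129), and likewise without those numbered 4 (0.0905 to 0.157). Eif3e, Tsc1 and Bysl lay just under the threshold with all arrays (paired adjusted p 0.0475 to 0.0481). Their values with arrays left out are not given here.

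**Figure D4:**
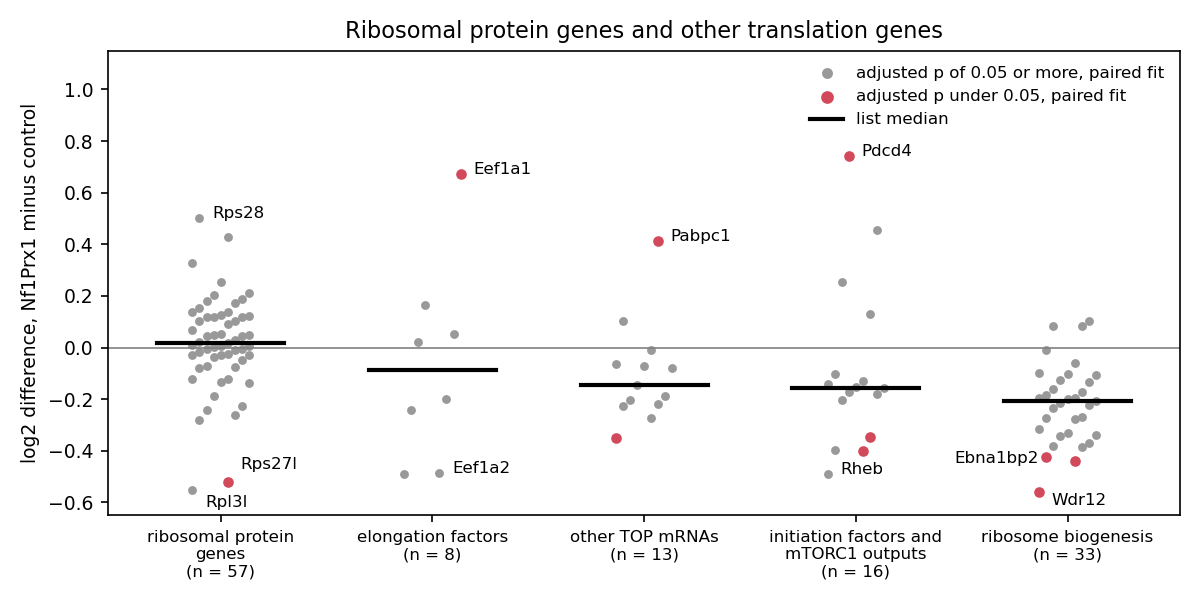
Difference of the group means (log2, Nf1Prx1 minus control) for 57 ribosomal protein genes and 4 other lists of translation genes, 1 point per gene, red where the adjusted p of the paired fit was under 0.05, with black lines at list medians. The ribosomal protein genes centre on 0.02, and the ribosome biogenesis genes on -0.21 with 30 of 33 below 0.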

How the data were processed

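Log2 levels per transcript cluster were made by the authors with RMA in the Affymetrix Expression Console, per the submitters' processing notes, and versions are not given in the sources used here. The authors' deposited probe set table gives, per the file headers, group means and SD of normalized log2 intensity, minima and maxima, an unadjusted p-value, a ratio of control over mutant, a fold change, and F and T scores. Its deposited p-values match a test with 8 degrees of freedom among arrays (gap at most 5.89e-06) but not with 6 (0.0125), so more arrays than 4 per group lie behind it. No filter on low values was used.

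Of 35556 clusters, 23410 were listed in the platform annotation and 21789 had 1 symbol, updated through the Entrez ID for 21698. The cluster with the highest mean stood for each of 19938 genes. The annotation of the clusters names no genome build, so coordinates are given only for RefSeq sequences. Array medians over genes were 7.57 to 7.67, correlations between arrays 0.928 to 0.994, and the number of arrays limits the precision. The comparison used the lmFit and eBayes functions of limma 3.58.1 under R 4.3.3, two-sided, with p adjusted by Benjamini-Hochberg over all genes and a threshold of 0.05, tested on simulated data. Single contrasts had exact permutation tests over the 8 arrays. Tables were read with Python 3.11.15, pandas 2.3.3 and scipy 1.17.1, and figures drawn with matplotlib 3.10.9.

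Titles number the arrays 1 to 4 in each group. Deviations from group means correlated at 0.71, 0.57, 0.39 and 0.30 between arrays of the same number and at -0.53 to 0.30 otherwise, so the numbers were taken as pairs. For the arrays numbered 4 the correlation was 0.296, below that of control 3 with Nf1Prx1 4 (0.303). Control 4 with Nf1Prx1 3 was close to it (0.289), so the correlations do not single out pair 4. No source states the pairing by number, which was read from the data, and the paired p-values may be too small. The members, lists and tests were chosen with earlier results of these data known. Named members are those called in either fit, the 6 smallest p in each direction, the paralogs, stalk and Rpl5 with Rpl11, and the 3 highest and lowest levels. From each other list up to 4 genes with the smallest p are named. Rpl3 had shared clusters alone, so the one with the highest mean was used. Alternatives were the block, quantile normalization, median centring, the mean of clusters, a filter on dim genes, array weights, and leaving out arrays. The fits over all listed clusters, those of the Rpl3 clusters and the block with quantile normalization were added after seeing the data.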

Additional observations from a re-analysis of the deposited data

Results flagged for a closer look

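In 4 of 84 values tested, 1 array lay far from the other 3 of its group, with a gap to the nearest array, as a share of the group's range, above Dixon's 95% critical value, and chance flags about 1 in 20 groups. For the median shift of the ribosomal protein genes in control arrays, the highest array was control 1 (0.34 against -0.17 to -0.09), with a gap of 0.832 of the range. Control 1 was also far above the other controls for Rps4x (gap 0.96 of the range) and for Rpl21 (0.882). For Rps27l in Nf1Prx1 arrays, Nf1Prx1 1 was the highest (gap 0.846). Over all 57 members, 14 of 114 groups were past the limit, 9 of them with control 1 high.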

How the results depend on the processing

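The median difference of the ribosomal protein genes ran from -0.04 to 0.13 over the settings tried, and was 0.13 without control 1. The median shifts of the 4 controls had an SD of 0.23, and those of controls 2 to 4, centred on their own means, one of 0.059. The count of members called was 0 of 57 in the fit without a block. It was 1 with the replicate block (Rps27l), 1 with the block over all listed clusters, 1 with the block and without the arrays numbered 2, and 2 with array weights (Rps27l and Rpl12, with 15.4% of all genes called). In the other settings it was 0, leaving out any array included. The count fully apart was 1, and 0 after array median centring and 0 with dim genes left out, where 54 members remained and Rpl12 was not among them. Leaving out 1 array gave 1 to 10, with 10 without control 1, and 11 without control 1 and Nf1Prx1 1. With the numbered pairs 1, 2, 3 or 4 left out it was 11, 4, 4 and 2. Groups of fewer arrays are apart more often in any gene. Without pair 1, 8.03% of all genes were fully apart toward higher and 15.7% toward lower levels, beside 2.58% and 6.04% with all arrays. The shares over all genes without pairs 2, 3 or 4 are not given here, so those counts show nothing particular to the members. The within-array difference of Rpl3l and the Rpl3 cluster was -1.51 with the replicate block too (exact p 0.125), -1.51 after quantile normalization and -1.46 with the mean of clusters (exact p 0.0286 each). Leaving out 1 array gave -1.79 to -1.15 (exact p 0.0286 or 0.0571), and leaving out control 1 and Nf1Prx1 1 gave -1.33 (0.1). With the block and without pair 1, 2, 3 or 4 it was -1.33, -1.37, -1.66 and -1.69 (exact p 0.25, the smallest that 3 pairs allow). Median centring cannot change it, and the filter on dim genes and array weights were not run for it. The all-gene count of the paired fit was 1667, and 719, 1202, 206 and 50 without pairs 1, 2, 3 and 4. For single genes and the clusters of Rpl3 named here, no called value changed sign. Leaving out 1 array moved differences that had not passed by over 1.5 times for Rpl5, Rpl9, Rpl39l, Rpl41, Rplp2, Rps4x and Rps6 too, and for Eef1e1 (-0.32 without Nf1Prx1 2), and Rheb was at -0.29 without both arrays numbered 1. The precision is limited by 4 arrays per group, with array weights from 0.265 to 4.42.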
